A study of Homo sapiens with 60 samples.

Results

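The 40 genes described here encode the machinery of glycolysis and other genes that cells switch on when oxygen is short. They were taken from a named list of gene symbols, matched by identifier to 40 of the 60675 genes in the count table. No measured value served as a rule of choice, but earlier results of these data were known when the genes were chosen. They fall into 19 glycolytic enzymes and transporters, 4 regulators of glycolytic flux and 17 other targets of the hypoxia-inducible factors (HIF). RNA was sequenced from SW1783, an established human astrocytoma cell line, after 24 h with an ethanol extract of a medicinal herb or formula or with the DMSO vehicle alone.

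The vehicle group held 3 libraries, labelled 0.1% DMSO. Astragali Radix (astragalus root) was given at 220, 44 and 8.8 µg/mL. Cinnamomi Cortex (cinnamon bark) and 4 formulas (Sagunja-tang and Samul-tang, then Palmul-tang, then Sibjeondaebo-tang) were each given at 500, 100 and 20 µg/mL. These doses are called high, medium and low, with 3 libraries in each of the 18 groups. Rehmanniae Radix Preparata (prepared rehmannia root) had a single library at each of 500, 100 and 20 µg/mL. Palmul-tang is by its recipe the union of the first 2 formulas, and Sibjeondaebo-tang extends it with astragalus root and cinnamon bark. SW1783 is 1 tumour line, so every group shares its genotype.

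Glycolysis splits glucose into pyruvate in the cytosol and yields ATP without oxygen, and lactate dehydrogenase turns the pyruvate into lactate. The hypoxia-inducible factors are pairs of an oxygen-labile alpha subunit and a stable beta subunit. With oxygen present, prolyl hydroxylases (EGLN1 and EGLN3 among the genes here) mark the alpha subunit for destruction through VHL. When it is spared, it binds short DNA elements and raises glucose uptake, glycolytic enzymes, blood vessel growth factors and mitophagy receptors. Astrocytic tumours are known for high glycolysis even with oxygen at hand. Several of the genes, DDIT4 and NDRG1 among them, are also known to answer to other stresses, so their level is not a measure of HIF by itself.

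Total expected counts ranged from 19793383 to 37152367 over the 60 libraries, and all 40 genes passed the filter on low counts. Levels are CPM (counts scaled to a common library total) after TMM scaling, and differences are log2 ratios ± SE with adjusted p from edgeR's quasi-likelihood F test over 17676 genes, with 3 libraries per group. Whether replicates came from separate cultures is not labelled, and a p therefore reflects the spread of these libraries, which may be technical. Fewer cells of a kind and less RNA per cell cannot be told apart in such bulk samples. Every library title, of vehicle and extracts alike, begins with BatchF. Each library also has a short code in its label whose meaning is not explained. The vehicle code occurs in no extract group, so the effects of extract and code cannot be told apart against the vehicle, whereas all doses of 1 extract have the same code. The astrocyte markers GFAP, S100B, AQP4, SOX2 and ALDH1L1 were at or near 0 (0.326 CPM at most). The other listed glial genes were present in every library. These were VIM (3722 to 6111 CPM), CD44 (1834 to 2976 CPM), SOX9 (58.8 to 82.7 CPM), SLC1A3 (11.9 to 29.3 CPM) and NES (1.62 to 15.7 CPM). Astragali Radix low replicates 1 and 2 stood apart from the rest: transcript length and GC content accounted for 16.7% and 39.1% of the variance of their deviations, against at most 3.26% in the other libraries.

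In the vehicle, 5 enzymes were the most abundant of the 40 genes per kilobase of longest transcript. GAPDH, which makes NADH in the pathway, stood first at 2474 CPM per kilobase. PKM (1257), ENO1 (1224), ALDOA (1041) and LDHA (768), which encode pyruvate kinase, enolase, aldolase and a lactate dehydrogenase subunit, followed on the same scale. Outside the pathway VEGFA, the growth factor of blood vessels, was the highest at 107 CPM per kilobase. EGLN3 was the lowest of the 40 at 1.52 CPM per kilobase.

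Hypoxia-inducible factors bind the core letters ACGTG or GCGTG, so the bases before each transcription start were searched for these and their reverse complements CACGT and CACGC, where the palindrome CACGTG counts once on each strand. Windows of 250 bases before RefSeq start sites (GRCh38.p14) were searched for 36 of the 40 genes. VEGFA, NDRG1, BNIP3L and SLC2A3 were not among the genes searched. The background was 35116 such windows of 27305 genes, which leaves out part of the genes in the count table. Of the 68 windows of the 36 genes, 43 (63.2%) held at least 1 such core, against 43.2% of the background. By role, this was 22 of 42 windows for enzymes and transporters (52.4%), 5 of 6 for flux regulators (83.3%) and 16 of 20 for the other HIF targets (80%). Genes differ in their number of windows. A core in any window was held by 15 of 18 enzymes and transporters (83.3%), 4 of 4 flux regulators and 12 of 14 other HIF targets (85.7%). This made 31 of the 36 genes (86.1%), against 47.4% of the background genes. In the first window the shares were 55.6%, 75% and 78.6% by role, against 43.1% of the background genes. Among genes prominent in the results, the only windows of SLC2A1 and EGLN3 hold 0 cores and that of ADM 1. HK2 holds 3 before its first start, and the second window of AK4 holds 0. The stretches listed here were picked as examples and do not stand for the 36 genes. Those of HK2, PGK1, DDIT4, BNIP3 and AK4 hold 3 to 6 cores each. That of HK1, the paralogue of HK2, holds none, and a single other of the 7 HK1 windows holds 1. Each is the part of the window before the first base in it that GENCODE v29 annotates as exon on the same strand, read 5′ to 3′, with the cores in capitals. Those of HK2 and PGK1 lie inside the annotated gene, downstream of its first start.
HK1 (chr10:69269750-69269983, plus strand): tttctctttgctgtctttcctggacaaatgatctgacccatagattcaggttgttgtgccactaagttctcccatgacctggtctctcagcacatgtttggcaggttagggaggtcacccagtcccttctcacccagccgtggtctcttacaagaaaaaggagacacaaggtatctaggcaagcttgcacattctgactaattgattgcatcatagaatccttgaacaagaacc
HK2 (chr2:74834920-74835169, plus strand, before the second of its starts): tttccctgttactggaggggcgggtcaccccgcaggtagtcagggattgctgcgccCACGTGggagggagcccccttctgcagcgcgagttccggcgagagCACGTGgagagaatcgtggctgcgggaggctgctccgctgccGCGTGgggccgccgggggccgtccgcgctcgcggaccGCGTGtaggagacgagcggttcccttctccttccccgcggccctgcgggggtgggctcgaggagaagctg
PGK1 (chrX:78103998-78104173, plus strand): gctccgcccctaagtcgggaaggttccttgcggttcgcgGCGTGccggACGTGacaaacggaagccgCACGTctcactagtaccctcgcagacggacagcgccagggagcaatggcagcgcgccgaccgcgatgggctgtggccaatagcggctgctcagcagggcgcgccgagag
DDIT4 (chr10:72273674-72273919, plus strand): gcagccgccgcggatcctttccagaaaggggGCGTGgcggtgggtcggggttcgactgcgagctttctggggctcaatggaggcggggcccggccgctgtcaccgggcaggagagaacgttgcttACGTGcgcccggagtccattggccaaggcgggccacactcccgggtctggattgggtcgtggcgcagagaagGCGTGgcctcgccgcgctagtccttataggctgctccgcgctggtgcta
BNIP3 (chr10:131982014-131982173, minus strand): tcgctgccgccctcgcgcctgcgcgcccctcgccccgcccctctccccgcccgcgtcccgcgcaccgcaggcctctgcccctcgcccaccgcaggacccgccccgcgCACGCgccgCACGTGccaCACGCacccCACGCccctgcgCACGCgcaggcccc
AK4 (chr1:65147302-65147548, plus strand): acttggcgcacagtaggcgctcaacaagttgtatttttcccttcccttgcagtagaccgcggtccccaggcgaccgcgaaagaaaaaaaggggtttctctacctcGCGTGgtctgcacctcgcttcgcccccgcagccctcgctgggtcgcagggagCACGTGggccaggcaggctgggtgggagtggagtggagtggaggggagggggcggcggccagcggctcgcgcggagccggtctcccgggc
A core is a match of letters and not evidence that a factor binds there.

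At the high dose of Astragali Radix, 38 of the 40 genes rose and none fell. This compares with 32.6% of all genes higher and 35.6% lower in the same test. The TMM factors behind the CPM were 0.75, 0.76 and 0.78 in these libraries, against 0.96 to 0.97 in the vehicle. A lower factor raises the CPM of every gene, so the smaller rises depend on the scaling. The median change was log2 0.95, a fold of 1.93, while the median of all genes was -0.06. All 17 other HIF targets rose (median 1.49), as did the 4 flux regulators (median 0.86) and 17 of the 19 enzymes and transporters (median 0.77). In 39 of the 40 genes all 3 libraries lay above all 3 vehicle libraries, which held for 35.7% of all genes. The 2 genes that did not pass were GPI, glucose-6-phosphate isomerase (0.05 ± 0.05), and PFKM, the muscle form of phosphofructokinase (0.15 ± 0.07). CA12, a carbonic anhydrase, passed by little (0.16 ± 0.07, adjusted p = 0.0479) and lost its call without Astragali Radix high replicate 2 or 3 or Vehicle replicate 1 or 2 (0.13 to 0.16, adjusted p = 0.0936 to 0.177).

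**Figure D1:**
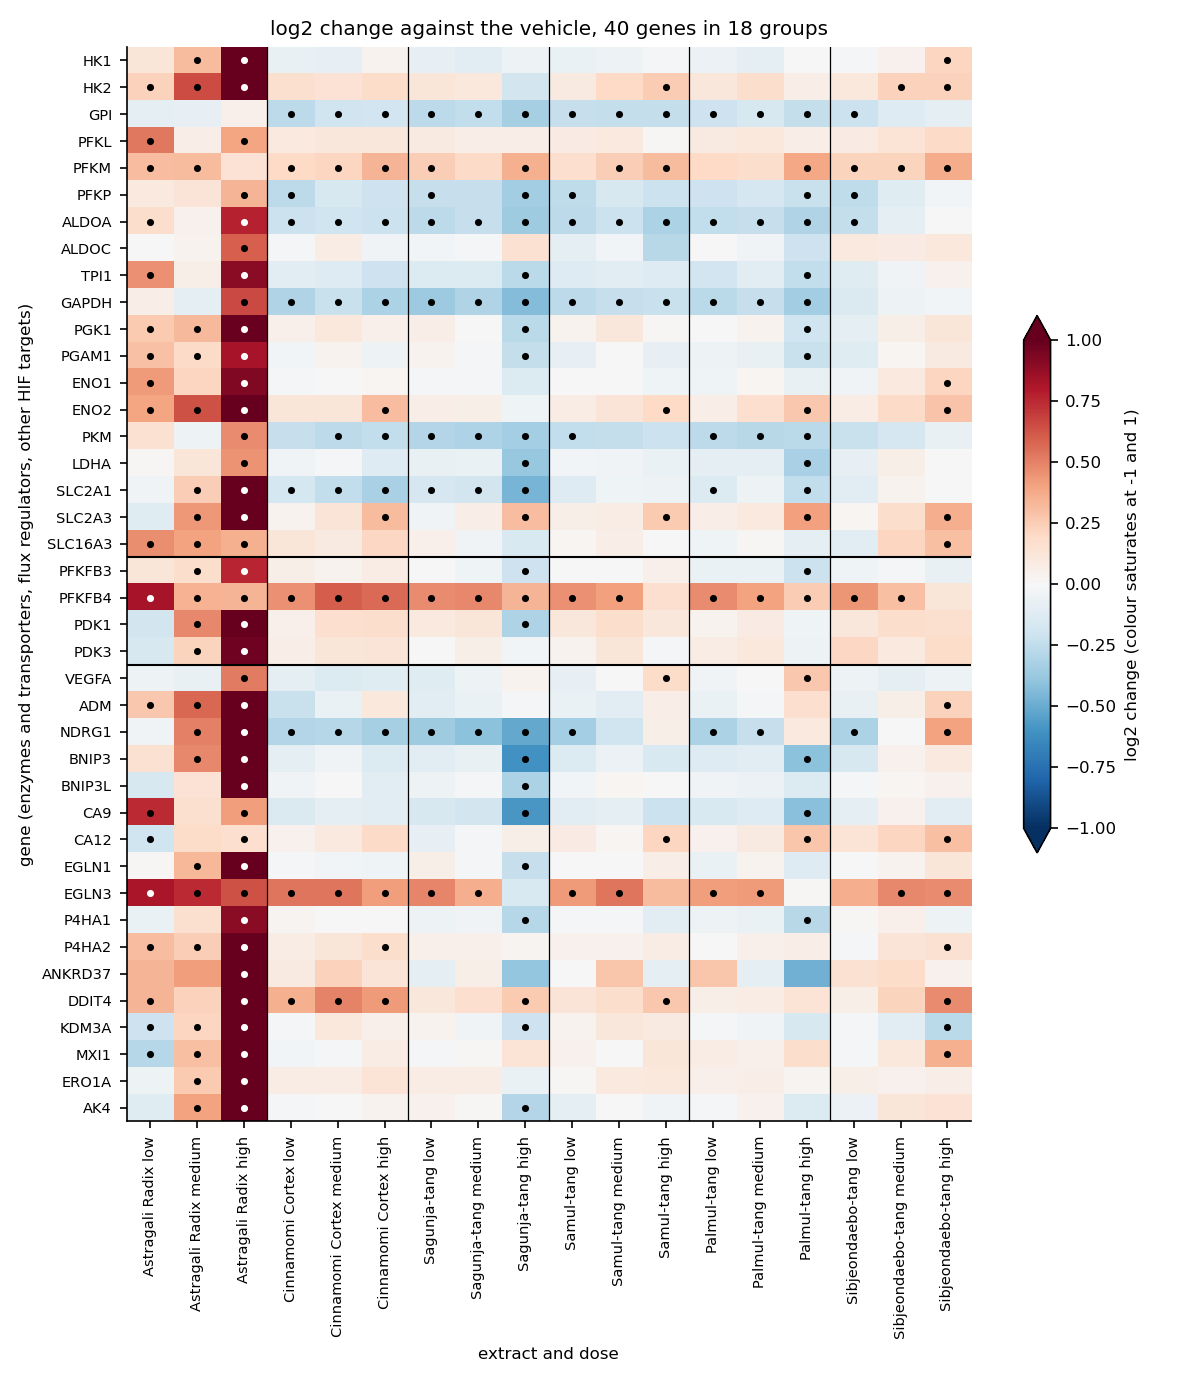
Log2 ratio to the vehicle of the 40 genes (rows, grouped as enzymes and transporters, flux regulators and other HIF targets) in the 18 groups (columns, 3 libraries each); colours saturate at -1 and 1 and a dot marks an adjusted p below 0.05. The column of Astragali Radix high has 38 dots, all of them rises, whereas Sagunja-tang high has 20 falls and 4 rises.

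The largest rise was that of NDRG1 (ENSG00000104419), a gene induced by hypoxia and by differentiation. Its 3 vehicle libraries held 52.4, 54.8 and 53.4 CPM and the high dose of Astragali Radix 1076, 1067 and 1159 CPM (log2 4.36 ± 0.08, adjusted p = 1.01e-38). ADM (ENSG00000148926, chromosome 11, 10304680 to 10307397), which encodes the vessel-widening peptide adrenomedullin, went from 10.6, 11.0 and 11.1 CPM to 175, 181 and 155 CPM (3.96 ± 0.08). For both genes every treated library stood far above every vehicle library. DDIT4 (ENSG00000168209), an inhibitor of mTORC1 whose promoter is printed above, went from 52.3, 53.3 and 58.4 CPM to 557, 560 and 466 CPM (3.27 ± 0.09). AK4, an adenylate kinase of mitochondria, rose by 2.16 ± 0.06.

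Both glucose importers rose, the minor one more steeply. SLC2A3 (ENSG00000059804), the high-affinity GLUT3, stood at 35.0, 35.4 and 38.0 CPM in the vehicle and at 282, 276 and 266 CPM with the high dose of Astragali Radix (2.93 ± 0.07, adjusted p = 5.46e-35). SLC2A1 (ENSG00000117394), the widespread GLUT1, went from 224, 226 and 220 CPM to 791, 764 and 714 CPM (1.76 ± 0.05). Per length of the longest transcript, the ratio of SLC2A1 to SLC2A3 thus fell from 6.61 to 2.94, and per median transcript length from 11.5 to 5.12. The level of such a ratio depends on the length chosen, and its change between groups does not. The lactate exporter SLC16A3 (MCT4) changed little by comparison, by 0.36 ± 0.08.

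Hexokinase traps glucose in the cell, and the forms HK1 and HK2 changed unequally. HK2 (ENSG00000159399, chromosome 2, 74833981 to 74893359), the form bound to mitochondria in many tumours, rose from 52.1, 55.1 and 56.0 CPM to 582, 560 and 606 CPM (3.42 ± 0.08, adjusted p = 1.27e-35). HK1, the housekeeping form, rose from 372, 372 and 359 CPM to 762, 760 and 815 CPM (1.08 ± 0.06). Per length, HK1 exceeded HK2 by 9.76-fold in the vehicle and by 1.93-fold at the high dose. The enolases differed in the same manner: ENO2, the neuronal form, rose from 52.9, 56.4 and 56.1 CPM to 234, 247 and 274 CPM (2.19 ± 0.07), and ENO1 from 2867, 2921 and 2823 CPM to 5526, 5429 and 5430 CPM (0.93 ± 0.08). The ratio of ENO1 to ENO2 per length went from 62.8 to 26.2.

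The aldolases moved together. ALDOA rose from 1724, 1674 and 1823 CPM to 3132, 2963 and 2809 CPM (0.77 ± 0.07) and the brain form ALDOC from 6.82, 6.52 and 6.20 CPM to 11.9, 9.18 and 8.37 CPM (0.60 ± 0.11). Phosphofructokinase, the committed step, showed the smallest changes among the enzymes after GPI. The liver form PFKL rose by 0.40 ± 0.11 (127, 130 and 131 CPM against 182, 166 and 164 CPM) and the platelet form PFKP by 0.34 ± 0.08 (213, 231 and 213 CPM against 283, 278 and 269 CPM). PFKM held 36.7, 34.9 and 39.0 CPM in the vehicle and 41.5, 40.3 and 40.6 CPM with the extract, above the vehicle in each library but short of the threshold (adjusted p = 0.0524). GPI (ENSG00000105220), the step between hexokinase and phosphofructokinase, overlapped the vehicle (422, 422 and 433 CPM against 454, 437 and 431 CPM). The remaining enzymes, TPI1, GAPDH, PGK1, PGAM1, PKM and LDHA, rose by 0.45 to 0.99, and PGK1, an ATP-forming kinase, was the highest of these. Summed over the 19 enzymes and transporters, the vehicle libraries held 18818, 18496 and 18693 CPM and the high dose 31976, 31398 and 30630 CPM.

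All 4 flux regulators rose. PDK1 and PDK3, kinases that shut the pyruvate dehydrogenase gate into mitochondria, rose by 1.04 ± 0.10 and 0.97 ± 0.07. PDK1 went from 35.4, 33.6 and 33.7 CPM to 71.0, 69.6 and 70.6 CPM, and PDK3 from 12.8, 12.9 and 12.3 CPM to 23.1, 26.5 and 24.8 CPM. Their ratio changed little, from 0.366 to 0.385 per longest transcript and from 1.69 to 1.77 per median length, so which of the pair was more abundant depends on the length chosen. PFKFB3, which makes the activator of phosphofructokinase, rose by 0.76 ± 0.06 (87.9, 88.2 and 87.9 CPM against 152, 148 and 147 CPM). PFKFB4 rose by 0.34 ± 0.09 (27.5, 25.9 and 28.0 CPM against 33.5, 32.5 and 37.0 CPM).

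Among the other HIF targets, paralogues differed too. BNIP3 and BNIP3L, receptors that tag mitochondria for removal, both rose several-fold: BNIP3 (ENSG00000176171) from 116, 122 and 117 CPM to 405, 416 and 394 CPM (1.78 ± 0.09) and BNIP3L from 132, 129 and 123 CPM to 497, 519 and 487 CPM (1.97 ± 0.08). EGLN1 rose from 66.8, 66.9 and 71.3 CPM to 175, 197 and 204 CPM (1.49 ± 0.07), more than EGLN3 (0.64 ± 0.13; 4.59, 4.19 and 4.17 CPM against 6.39, 6.64 and 7.14 CPM). The ratio of EGLN1 to EGLN3 per length widened from 6.36 to 11.5. Of the collagen prolyl hydroxylases, P4HA2 rose by 1.39 ± 0.06 (131, 139 and 136 CPM against 371, 358 and 338 CPM) and P4HA1 by 0.90 ± 0.09 (237, 239 and 242 CPM against 452, 453 and 435 CPM). The carbonic anhydrases, which CA9 leads as a clinical hypoxia marker, were among the smallest rises: CA9 went from 35.8, 36.5 and 42.0 CPM to 56.7, 49.9 and 46.1 CPM (0.42 ± 0.14) and CA12 from 52.9, 55.0 and 58.1 CPM to 58.2, 62.5 and 65.3 CPM. VEGFA rose by 0.52 ± 0.06. The repressor MXI1 (1.88 ± 0.09), the histone demethylase KDM3A (1.69 ± 0.06), the disulfide-forming oxidase ERO1A (1.49 ± 0.06) and ANKRD37 (1.48 ± 0.21) rose between 2.79-fold and 3.68-fold.

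**Figure D2:**
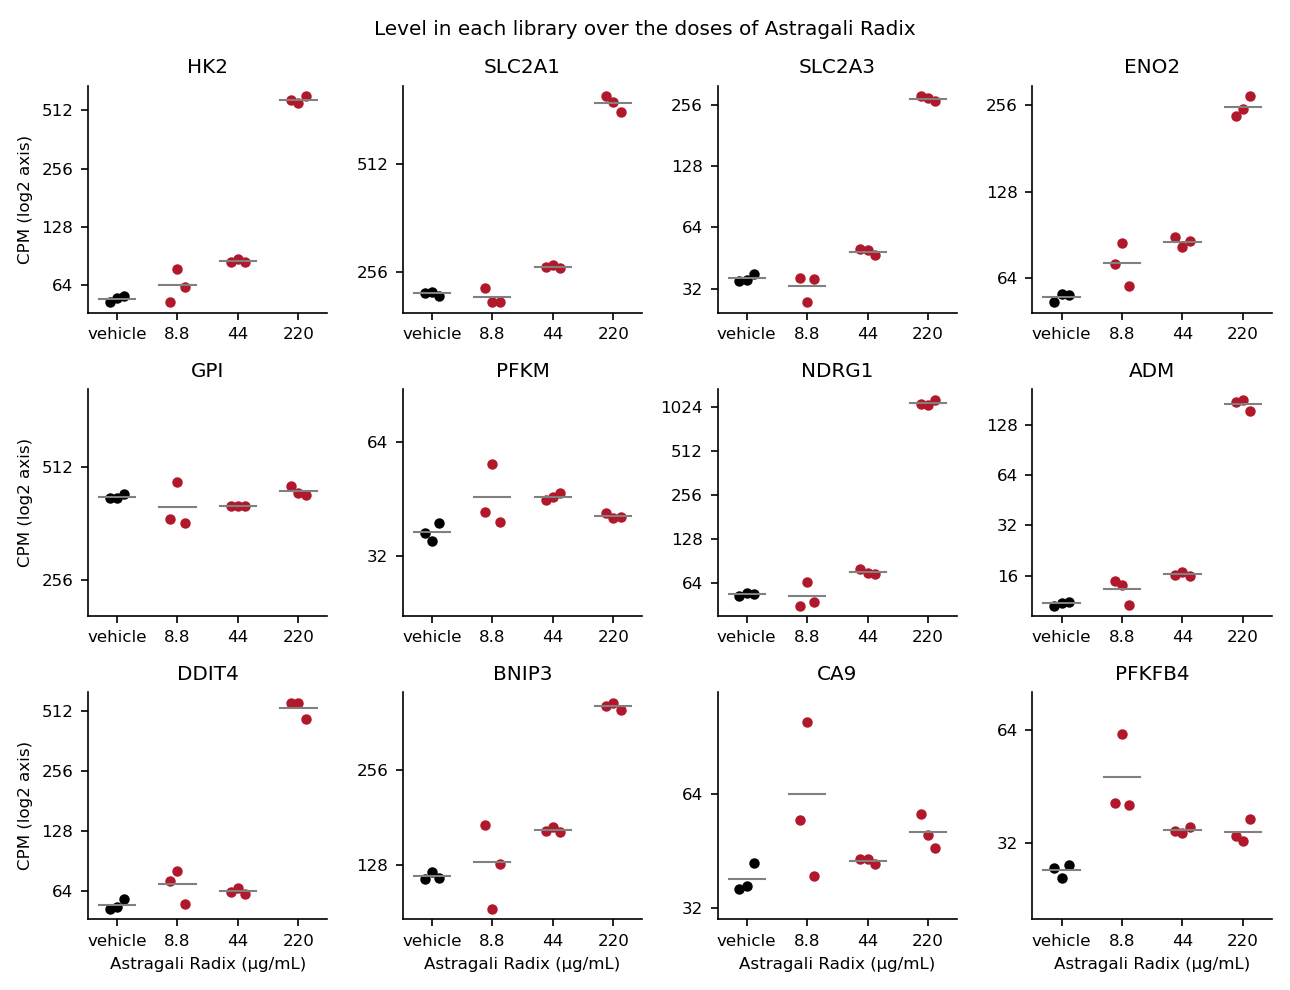
CPM on a log2 axis of 12 of the genes in the vehicle and at 8.8, 44 and 220 µg/mL of Astragali Radix; each point is a library and the short grey line is the group mean. HK2, SLC2A3, NDRG1, ADM and DDIT4 climb mostly between 44 and 220 µg/mL, GPI stays between 363 and 466 CPM, and at 8.8 µg/mL replicate 2 leaves the other libraries for CA9 and PFKFB4.

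At the medium dose of Astragali Radix the set stood a little above the vehicle: 23 of the 40 rose and none fell, against 7.75% of all genes higher and 8.81% lower. The median was 0.24, and the rises comprised 9 of 19 enzymes and transporters, the 4 flux regulators and 10 of 17 other HIF targets. EGLN3 (0.75 ± 0.12; 6.69, 7.93 and 7.17 CPM), HK2 (0.65 ± 0.07; 84.5, 87.3 and 84.5 CPM) and ENO2 (0.64 ± 0.07; 89.0, 81.9 and 86.4 CPM) rose most. NDRG1, the largest rise at the high dose, held 80.1, 74.7 and 73.4 CPM (0.51 ± 0.07). Leaving out 1 library at a time left 18 to 22 calls, and KDM3A, MXI1, PDK3, PFKFB3 and PGAM1 each lost theirs in at least 1 such fit.

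At the low dose 16 genes were called higher and 3 lower, against 21.6% and 19.2% of all genes, but these calls rest on the libraries that stand apart. HK2, for example, held 52.2, 77.2 and 62.8 CPM, and CA9 54.7, 99.4 and 38.8 CPM, with replicate 2 the highest in each. Without replicate 3 the count was 29, without replicates 1 and 2 together 8, and in a fit of the low dose and the vehicle by themselves none were. PFKFB4 was above the vehicle in each low-dose library (41.0, 62.4 and 40.5 CPM).

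Across the doses of Astragali Radix, 34 genes rose with dose and 3 fell, against 31.3% and 38.7% of all genes. The dose trend divides the log2 difference between the high and low doses by 2 and so gives the change per 5-fold step. It was largest for NDRG1 (2.20 ± 0.04, a high to low ratio of 21.0), ADM (1.85 ± 0.04, 12.9) and HK2 (1.59 ± 0.04, 9.10). The falls were PFKFB4 (-0.24 ± 0.05), CA9 (-0.17 ± 0.07) and PFKM (-0.08 ± 0.03). Without low replicate 2 the trends of CA9 and PFKM turned to 0.06 and 0.0054, so both falls rest on that library. CA9 also lost its call without high replicate 2 or 3 (adjusted p = 0.0719 and 0.116), as did PFKM (adjusted p = 0.0864 and 0.0669). Among the rises, those of GPI and PFKP lost their calls without low replicate 1 (0.04 and 0.05) or 3 (0.04 and 0.07).

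The rise at the high dose of Astragali Radix was larger over the other HIF targets than over the enzymes and transporters. Per library, the median log2 difference from the vehicle mean was 0.87, 0.77 and 0.69 over the 19 enzymes and transporters and 1.73, 1.54 and 1.55 over the 17 other targets. The gap between the lists was thus 0.86, 0.77 and 0.85 in the 3 libraries, and from -0.02 to 0.01 in the 3 vehicle libraries. Of the other targets, 12 of 17 rose at least 2-fold, against 5 of 19 enzymes and transporters. Over all genes 32.6% were called higher at any fold, so the share that rose at least 2-fold was no larger than that. Whether the 5 of 19 enzymes and transporters exceed that share cannot be read from this bound. The medians and counts are over genes that share libraries, and no test was made of the lists against each other. The lists also overlapped, since HK2 and SLC2A3 exceeded all other HIF targets but NDRG1, ADM and, for SLC2A3, DDIT4. At the medium dose the gap was 0.16, 0.04 and 0.06. At the low dose it was -0.08, -0.63 and 0.02, with the outlying value in replicate 2.

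**Figure D3:**
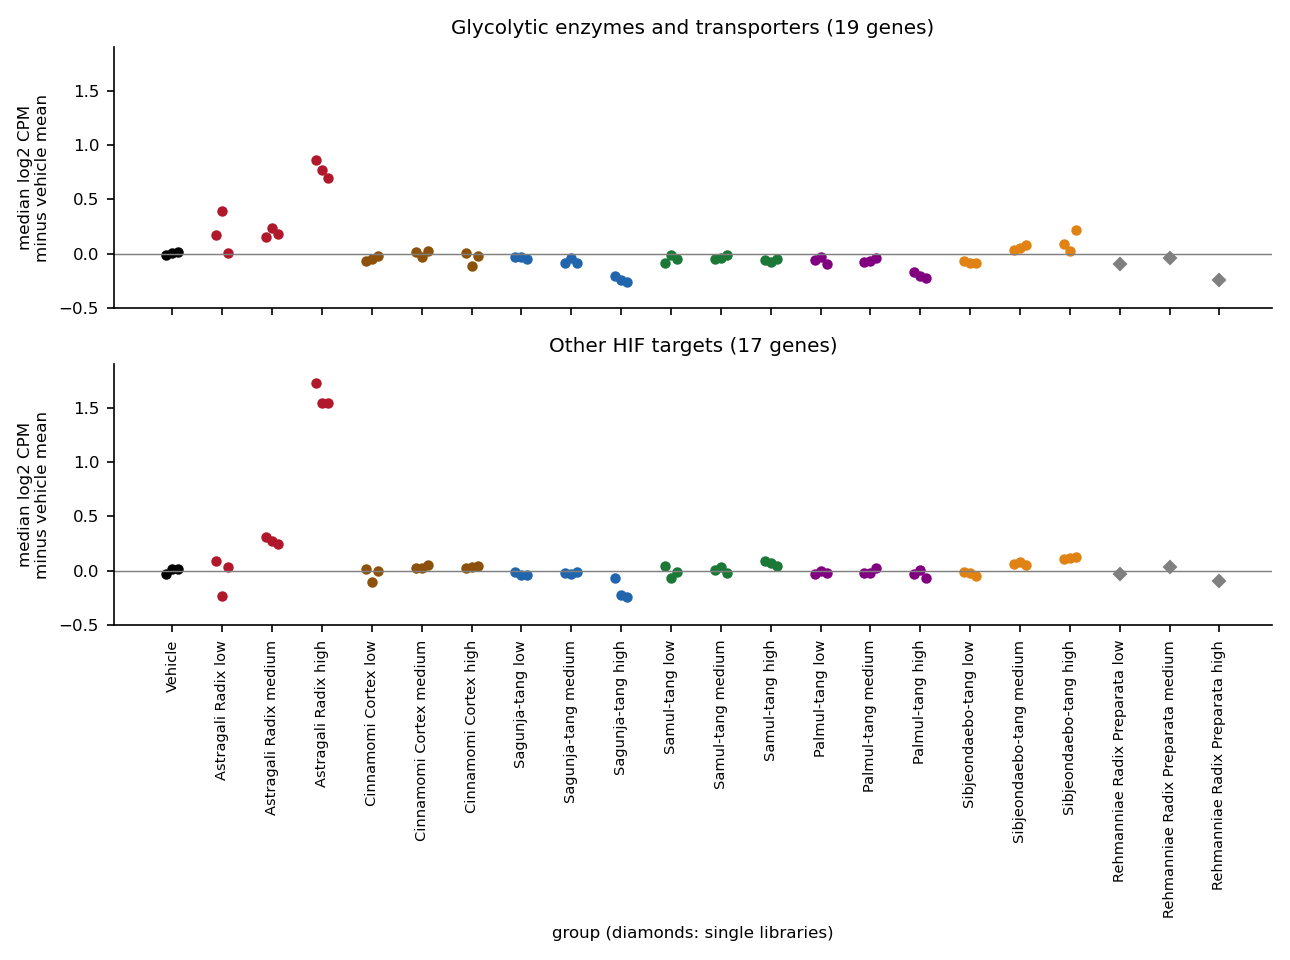
Median log2 CPM minus the vehicle mean per library, over the 19 enzymes and transporters and over the 17 other HIF targets, for every group; circles are libraries of the fitted groups and diamonds the single Rehmanniae Radix Preparata libraries. Astragali Radix high stands above all other groups in both lists. The enzymes lie below 0 in each library of Sagunja-tang, Samul-tang and Palmul-tang at every dose. Among these they lie furthest below at the high doses of Sagunja-tang and Palmul-tang.

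Sagunja-tang, a formula around ginseng, had many of the genes below the vehicle at its high dose. Against the vehicle 20 of the 40 fell and 4 rose, where 11.6% of all genes were lower and 11.2% higher. The falls were 10 of 19 enzymes and transporters (median -0.24), 2 of 4 flux regulators and 8 of 17 other HIF targets (median -0.21), beside a median of 0.01 over all genes. BNIP3 fell most, from 116, 122 and 117 CPM to 78.0, 81.0 and 73.8 CPM (-0.61 ± 0.09, adjusted p = 9.17e-07). CA9 held 25.2, 25.4 and 25.6 CPM against 35.8, 36.5 and 42.0 CPM (-0.58 ± 0.14), and NDRG1 37.6, 38.4 and 36.9 CPM against 52.4, 54.8 and 53.4 CPM (-0.51 ± 0.07). In each of these the groups did not overlap. NDRG1 was also lower than the same vehicle libraries at 5 of the 5 low doses of 20 µg/mL. The 3 largest rises were PFKM (49.3, 47.1 and 45.1 CPM against 36.7, 34.9 and 39.0 CPM, 0.36 ± 0.07), PFKFB4 (34.7, 35.4 and 32.8 CPM against 27.5, 25.9 and 28.0 CPM, 0.34 ± 0.09) and SLC2A3 (45.9, 43.0 and 45.3 CPM against 35.0, 35.4 and 38.0 CPM, 0.31 ± 0.07). Over the 15 groups other than Astragali Radix, PFKM was higher in 11, PFKFB4 in 13 and SLC2A3 in 5.

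The glucose importers therefore moved in opposite directions under Sagunja-tang. SLC2A1 fell from 224, 226 and 220 CPM to 161, 160 and 165 CPM (-0.46 ± 0.04, adjusted p = 6.27e-11) while SLC2A3 rose, and their ratio per length went from 6.61 to 3.87. Summed over the 19 enzymes and transporters, the high dose held 15032, 14970 and 15223 CPM, below each vehicle library. This was not particular to that dose or formula. The low dose held 16657, 16237 and 16501 CPM and that of Samul-tang 16792, 17159 and 16680 CPM, also below each vehicle library. Of the 20 falls, those of TPI1 (without Vehicle replicate 1), EGLN1 (without Vehicle replicate 3), PFKFB3 and P4HA1 (without high replicate 3) lost their calls when 1 library was left out, as did PDK1 and KDM3A and the rise of DDIT4. Their adjusted p were then 0.0537, 0.0588, 0.0780 and 0.0686 for the first 4.

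With the dose of Sagunja-tang 12 genes fell and 1 rose, against 1.71% and 2.06% of all genes. EGLN3 fell most per 5-fold step, from 5.87, 6.32 and 6.01 CPM at the low dose to 5.01, 3.64 and 3.05 CPM at the high dose (-0.32 ± 0.06, adjusted p = 0.000306). BNIP3 went from 110, 113 and 104 CPM to 78.0, 81.0 and 73.8 CPM (-0.25 ± 0.04, adjusted p = 0.000205). PDK1 went from 35.2, 37.6 and 36.9 CPM to 27.7, 26.9 and 28.4 CPM (-0.20 ± 0.05, adjusted p = 0.0127). High and low doses did not overlap in these genes. SLC2A3, the exception, rose from 34.6, 36.0 and 35.2 CPM to 45.9, 43.0 and 45.3 CPM (0.17 ± 0.03). PGK1, PGAM1, SLC2A1, SLC2A3, BNIP3, EGLN3 and AK4 kept their calls whichever of the 6 libraries was left out. LDHA and PFKFB3 kept theirs in none of those fits, PDK1 lost its call without high replicate 1 or 2 or low replicate 2 or 3 (adjusted p = 0.0515 to 0.0716), HK2 without high replicate 3 (adjusted p = 0.0760) and EGLN1 without low replicate 2 (adjusted p = 0.0525). The count was 8 without low replicate 2. It was 24 when the Astragali Radix libraries that stand apart, whose spread enters the shared estimate, were dropped.

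Samul-tang, a formula around rehmannia and angelica, changed few of the genes. At its high dose 7 rose and 3 fell, against 9.37% and 10.3% of all genes. PFKM rose most (46.8, 44.3 and 46.8 CPM, 0.32 ± 0.07), then DDIT4 (67.8, 69.9 and 59.8 CPM, 0.27 ± 0.08) and SLC2A3 (41.4, 45.2 and 43.5 CPM, 0.26 ± 0.07). ALDOA (1398, 1375 and 1415 CPM, -0.32 ± 0.07), GPI (362, 349 and 371 CPM, -0.24 ± 0.05) and GAPDH (3826, 3734 and 4382 CPM, -0.22 ± 0.07) fell. Against the same vehicle libraries ALDOA and GPI were also lower at 5 of the 5 low doses of 20 µg/mL, and GAPDH at 4. DDIT4 lost its call without high replicate 1 or 2 or Vehicle replicate 1 or 2 (adjusted p = 0.0614 to 0.0970), and GAPDH without high replicate 1 or 2 or Vehicle replicate 1 (adjusted p = 0.0696 to 0.121). The count of 10 became 6 without high replicate 2, 5 without Vehicle replicate 1 and 20 without the Astragali Radix libraries that stand apart. With dose, only NDRG1 and VEGFA changed, against 0.747% of all genes higher and 0.662% lower. NDRG1 rose from 43.7, 41.9 and 41.5 CPM to 54.2, 56.8 and 56.2 CPM (0.20 ± 0.04, adjusted p = 0.000727) and VEGFA from 366, 353 and 352 CPM to 428, 426 and 440 CPM (0.14 ± 0.03, adjusted p = 0.00579). Both kept their calls in each fit without 1 library.

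Palmul-tang, which joins both recipes, had many enzymes below the vehicle at its high dose and the other HIF targets near it. It had 14 genes lower and 6 higher, against 10.2% and 10% of all genes. The falls were 10 of 19 enzymes and transporters (median -0.21), PFKFB3 and 3 of 17 other HIF targets (median 0.01). CA9 held 27.9, 29.9 and 27.5 CPM (-0.42 ± 0.14), BNIP3 91.0, 90.2 and 86.0 CPM (-0.41 ± 0.09) and GAPDH 3672, 3528 and 3745 CPM (-0.35 ± 0.07). SLC2A3 (47.7, 45.7 and 50.9 CPM, 0.41 ± 0.07), PFKM (47.5, 46.3 and 50.6 CPM, 0.39 ± 0.07) and CA12 (67.2, 65.2 and 68.3 CPM, 0.27 ± 0.07) rose most. The call of CA9 at the high dose was lost without high replicate 1 or 3 or Vehicle replicate 3 (adjusted p = 0.0764, 0.0835 and 0.129). With dose, 3 genes rose and 3 fell, against 1.92% and 1.77% of all genes. NDRG1 rose from 41.8, 46.2 and 40.9 CPM to 55.7, 57.7 and 58.6 CPM (0.21 ± 0.04), SLC2A3 from 35.3, 41.2 and 37.0 CPM to 47.7, 45.7 and 50.9 CPM (0.17 ± 0.03) and VEGFA from 371, 385 and 352 CPM to 459, 454 and 458 CPM (0.15 ± 0.03). These rises kept their calls in each fit without 1 library. ANKRD37 (4.20, 4.48 and 3.55 CPM against 2.46, 1.86 and 3.00 CPM, -0.38 ± 0.11), EGLN3 (6.48, 5.76 and 5.08 CPM against 4.23, 4.88 and 3.90 CPM, -0.20 ± 0.06) and PGK1 (930, 923 and 966 CPM against 841, 820 and 804 CPM, -0.10 ± 0.03) fell. These falls were less firm: without 1 library, PGK1 lost its call in each of 6 fits (adjusted p = 0.0518 to 0.176), ANKRD37 in 5 (0.0574 to 0.306) and EGLN3 in 4 (0.0854 to 0.314). Dropping high replicate 1 or low replicate 1 left 3 calls, and dropping the Astragali Radix libraries that stand apart gave 19.

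Sibjeondaebo-tang, which adds astragalus root and cinnamon bark, had more of the genes above the vehicle than below it. At its high dose 14 rose and 1 fell, against 11.2% and 11.9% of all genes. DDIT4 rose from 52.3, 53.3 and 58.4 CPM to 78.1, 76.7 and 73.1 CPM (0.47 ± 0.08, adjusted p = 2.88e-05). EGLN3 held 5.80, 5.61 and 6.58 CPM (0.47 ± 0.12) and NDRG1 72.0, 70.6 and 69.6 CPM (0.40 ± 0.07), both above the vehicle in each library. KDM3A fell from 34.9, 36.9 and 37.9 CPM to 29.5, 31.2 and 30.3 CPM (-0.27 ± 0.07). The rises of HK2 (without Vehicle replicate 1, adjusted p = 0.0863), ADM, ENO1 and P4HA2 were lost when 1 library was left out, with adjusted p up to 0.151 for ADM and 0.184 for ENO1 (both without high replicate 3).

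With the dose of Sibjeondaebo-tang 16 genes rose and 2 fell, against 10.6% and 10.7% of all genes. The rises were 9 of 19 enzymes and transporters (median 0.08) and 7 of 17 other HIF targets (median 0.06). NDRG1 rose from 43.5, 43.1 and 42.5 CPM to 72.0, 70.6 and 69.6 CPM (0.36 ± 0.04, adjusted p = 4.58e-10), DDIT4 from 60.0, 57.5 and 52.9 CPM to 78.1, 76.7 and 73.1 CPM (0.21 ± 0.04) and SLC16A3 from 305, 300 and 279 CPM to 385, 384 and 404 CPM (0.20 ± 0.04). PFKFB4 (37.9, 36.6 and 35.6 CPM against 27.2, 32.6 and 28.6 CPM, -0.16 ± 0.05) and KDM3A (35.2, 38.4 and 35.1 CPM against 29.5, 31.2 and 30.3 CPM, -0.13 ± 0.03) fell. The deviations of the Sibjeondaebo-tang libraries moved with transcript length (Spearman rho -0.156, -0.147 and -0.238 at the high dose and 0.132, 0.124 and 0.182 at the low dose, across genes). With offsets for length and GC content, 28 genes rose and 2 fell, and 68.6% of all called genes were rises where the main fit had 49.7%. Without 1 library the count of calls ranged from 10 (without high replicate 3) to 17, and PFKFB4 lost its call without high replicate 1 (adjusted p = 0.0638) or 3 (adjusted p = 0.0505).

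**Figure D4:**
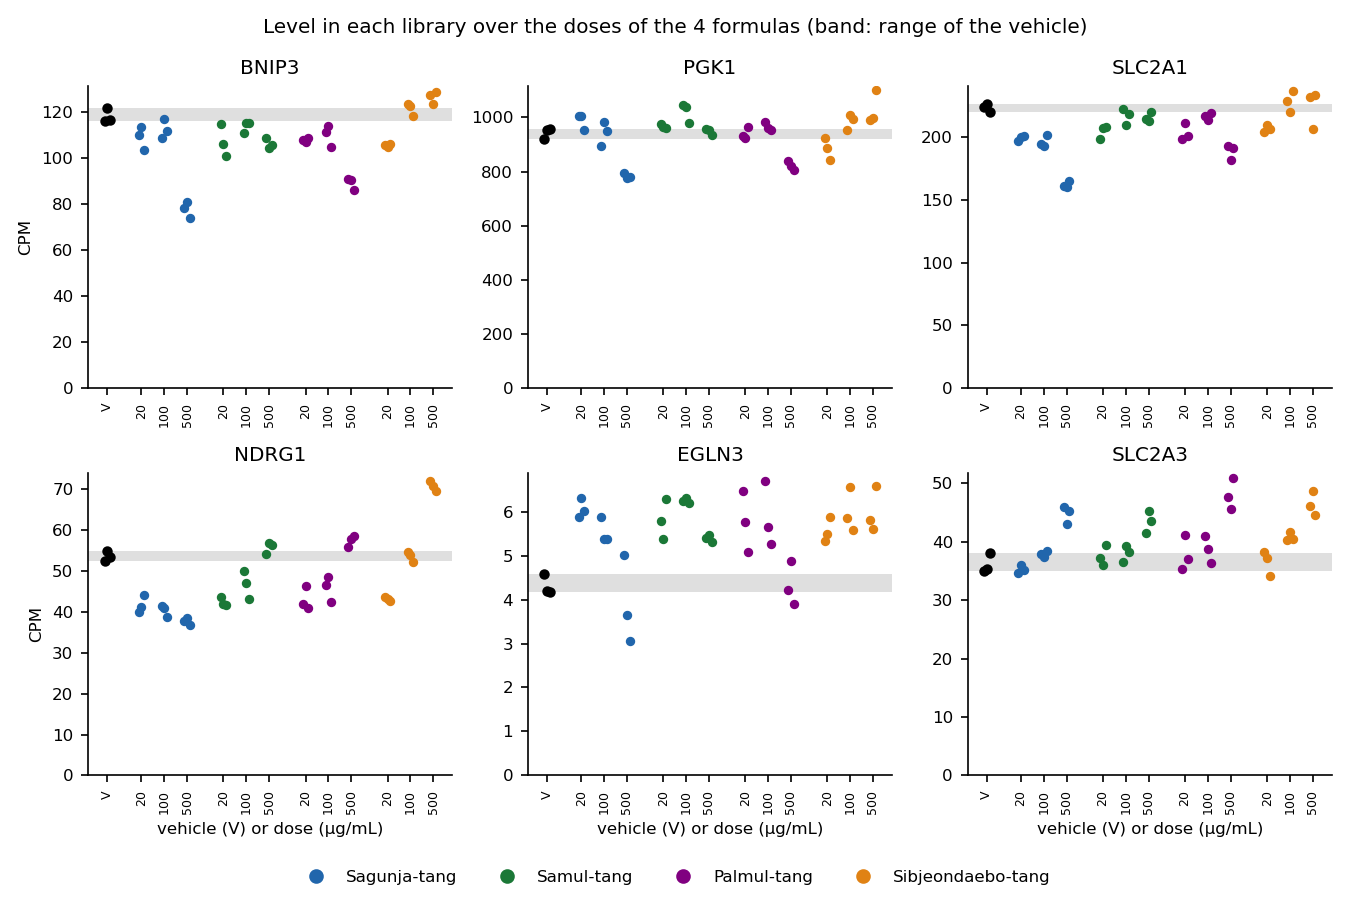
CPM of BNIP3, PGK1, SLC2A1, NDRG1, EGLN3 and SLC2A3 at 20, 100 and 500 µg/mL of the 4 formulas; each point is a library, black for the vehicle (V), and the grey band is the range of the 3 vehicle libraries. BNIP3 and SLC2A1 lie lowest in Sagunja-tang at 500 µg/mL, NDRG1 starts below the band at 20 µg/mL in every formula, and SLC2A3 ends above the band in all of them.

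The dose trends of the 4 formulas, given at matched doses, were then compared directly. They differed among the formulas in 11 of the 40 genes, against 4.81% of all genes. Sagunja-tang had lower trends than Samul-tang in 7 genes and higher ones in none, against 0.588% and 0.645% of all genes. SLC2A1 differed by -0.19 ± 0.03 per 5-fold step (adjusted p = 0.000233): it fell with Sagunja-tang from 197, 200 and 201 CPM to 161, 160 and 165 CPM and stood at 198, 207 and 208 CPM and 214, 213 and 220 CPM at the low and high dose of Samul-tang. NDRG1 differed by -0.27 (adjusted p = 0.00214), BNIP3 by -0.24, HK2 by -0.23, AK4 by -0.20, EGLN1 by -0.18 and PGK1 by -0.16. The 7 calls became 4 without Sagunja-tang high replicate 3 or low replicate 2 or Samul-tang high replicate 1, and 3 without Samul-tang high replicate 2 or low replicate 2. Palmul-tang exceeded Sagunja-tang in NDRG1 alone (0.28, adjusted p = 0.00253), against 0.0679% of all genes higher and 0.17% lower. Between Palmul-tang and Samul-tang no member passed, against 0.0509% and 0.0735% of all genes; the nearest was SLC2A1 (-0.09, 95% interval -0.16 to -0.03, adjusted p = 0.482). Sibjeondaebo-tang exceeded Palmul-tang in 4 genes, against 0.238% of all genes higher and 0.82% lower. These were PGK1 (0.21), PGAM1 (0.19), SLC16A3 (0.22) and BNIP3 (0.27), and the count was 1 without Sibjeondaebo-tang high replicate 3, 2 without its low replicate 3 and 7 without its high replicate 2. With offsets for length and GC content 20 genes were higher and 1 lower in that comparison, and the share of rises among all called genes went from 22.5% to 70.4%. All these counts depend on the Astragali Radix libraries that stand apart, whose spread enters the shared estimate. Without them more genes passed in every comparison of this paragraph, and some passed between Palmul-tang and Samul-tang. Those counts are given in the closing section.

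**Figure D5:**
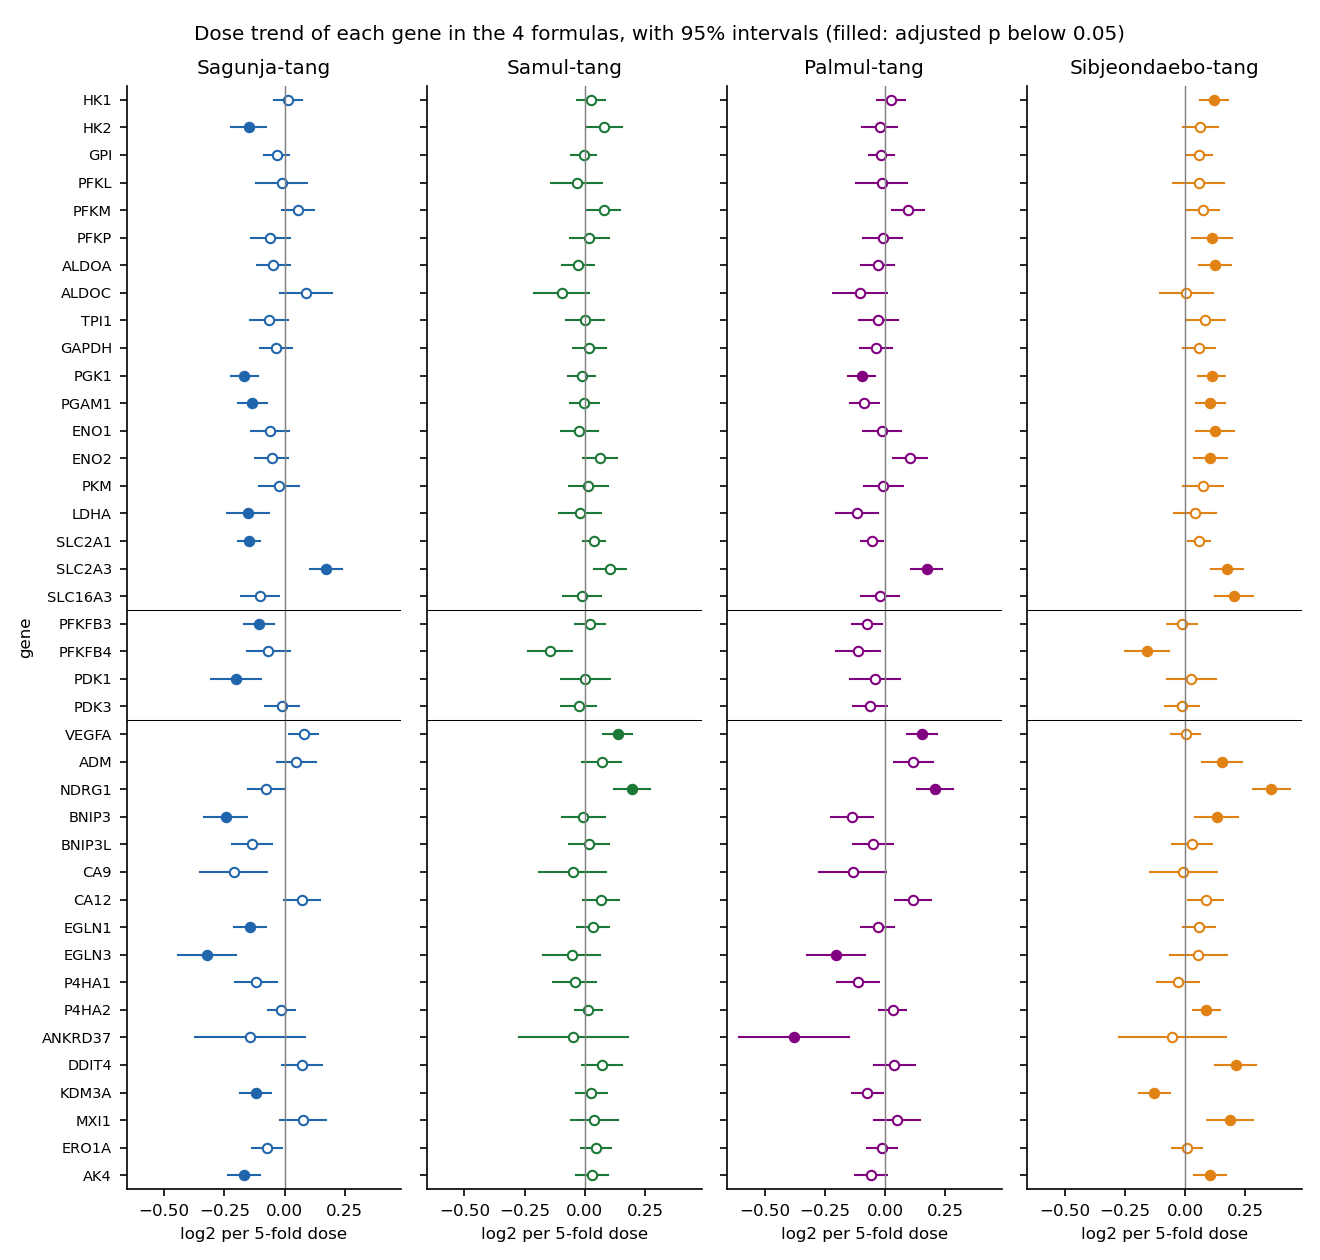
Dose trend (log2 change per 5-fold step of dose) of each of the 40 genes in the 4 formulas, with 95% intervals; filled symbols have an adjusted p below 0.05. Sagunja-tang has 12 filled symbols below 0 and 1 above, Sibjeondaebo-tang 16 above and 2 below, and NDRG1 is filled above 0 in the other 3 formulas.

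Cinnamomi Cortex left the set near the vehicle as a whole (median 0.04 at the high dose), with single genes on either side. At the high dose 7 rose and 6 fell, against 7.7% and 8.56% of all genes, and 25 genes passed without Astragali Radix low replicates 1 and 2. PFKFB4 (41.5, 38.9 and 39.9 CPM, 0.57 ± 0.09), DDIT4 (74.2, 75.0 and 71.6 CPM, 0.43 ± 0.08) and EGLN3 (6.38, 5.85 and 5.06 CPM, 0.42 ± 0.12) rose most. NDRG1 (42.2, 44.2 and 41.1 CPM, -0.33 ± 0.07), SLC2A1 (185, 178 and 174 CPM, -0.32 ± 0.04) and GAPDH (3799, 3670 and 3736 CPM, -0.31 ± 0.07) fell most. EGLN3 lost its call without high replicate 1 or Vehicle replicate 2 or 3 (adjusted p = 0.0556 to 0.0975). With dose only SLC2A3 passed, against 0.243% of all genes higher and 0.198% lower. It rose from 37.7, 38.5 and 34.9 CPM to 44.7, 44.4 and 45.4 CPM (0.14 ± 0.03, adjusted p = 0.0320) and lost its call whichever of the 6 libraries was left out (adjusted p = 0.0574 to 0.320).

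Some genes differed from the vehicle in most groups, whatever the extract or dose. Over the 15 groups other than Astragali Radix, PFKFB4 was higher in 13, EGLN3 in 11 and PFKM in 11, and GPI was lower in 13, ALDOA in 13, GAPDH in 12 and NDRG1 in 10. At the 5 low doses of 20 µg/mL, PFKFB4 was higher in 5 and GPI, ALDOA and NDRG1 were lower in 5. GPI at those low doses held between 347 and 378 CPM per library, below its 422 to 433 CPM in the vehicle. All these comparisons share the 3 vehicle libraries, so they are not independent of each other. At the low dose 4 of the 40 genes were higher and 6 lower with Cinnamomi Cortex (6.13% and 7.12% of all genes), 3 and 7 with Sagunja-tang (6.03% and 8.03%), 2 and 6 with Samul-tang (4.96% and 6.37%), 2 and 6 with Palmul-tang (4.27% and 5.57%) and 2 and 4 with Sibjeondaebo-tang (4.15% and 5.47%). At the medium dose they were 4 and 6 with Cinnamomi Cortex (5.86% and 7.17%), 2 and 6 with Sagunja-tang (6.16% and 7.31%), 3 and 3 with Samul-tang (5.19% and 6.88%), 2 and 5 with Palmul-tang (4.44% and 5.75%) and 4 and 0 with Sibjeondaebo-tang (2.31% and 3.45%). Single libraries moved some of these small counts: without Vehicle replicate 3 Palmul-tang medium had 1 call, and without Vehicle replicate 2 Sibjeondaebo-tang medium had none.

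Other lists of the pathway moved to different degrees at the high dose of Astragali Radix. The same test called 32.6% of all genes higher and 35.6% lower, with a median of -0.06. Of 14 measured genes of the HIF machinery 8 rose and 3 fell (median 0.14). CITED2, a competitor of HIF for its coactivator, rose by 1.53 ± 0.07, EGLN2, another prolyl hydroxylase, by 1.14 ± 0.10 and EPAS1, the HIF-2 alpha subunit, by 0.78 ± 0.07. HIF1A, the alpha subunit of HIF-1, fell by 0.39 on the log2 scale (adjusted p = 0.000596) at the level of mRNA. It is named for its role, after its value was seen. Of 29 further HIF targets 25 rose and 2 fell (median 0.82), led by PPP1R3C (3.24 ± 0.07), GBE1 (2.50 ± 0.09) and CCNG2 (2.13 ± 0.09). Of 20 further genes of glucose and pyruvate metabolism 10 rose and 7 fell (median 0.57). All 12 genes of a list of ATF4, the transcription factor of amino acid and endoplasmic reticulum stress, and its targets rose (median 3.43), and TRIB3 led with 5.46 ± 0.08. VLDLR stands in this list and among the further HIF targets. Of 5 measured glial genes 1 rose and 2 fell, and of 7 measured markers of other cell types 1 fell. Mitochondrial transcripts made up 5.7% to 6.2% of counts at this dose and 7.6% to 8.0% in the vehicle. The difference was not particular to this dose: no extract library passed 7.2%, and the medium dose of Astragali Radix held 5.0%. The part of these changes in the result was not tested.

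Under the formulas the further HIF targets followed the members in part. With the dose of Sagunja-tang 5 of 29 fell and 1 rose, against 1.71% and 2.06% of all genes. EDN1, which encodes the vasoconstrictor endothelin, fell by 0.76 per 5-fold step (adjusted p = 7.19e-08), and the rise was that of ANGPTL4 (0.27). With Sibjeondaebo-tang 7 rose and 5 fell, against 10.6% and 10.7% of all genes, with ANGPTL4 at 1.17 ± 0.07 and EDN1 at -0.73 ± 0.10. ANGPTL4, a lipase inhibitor induced by HIF and by fatty acid receptors, also rose with the dose of Palmul-tang (0.83), Samul-tang (0.76) and Cinnamomi Cortex (1.10). None of the 14 genes of the HIF machinery passed in the dose trends of Sagunja-tang, Samul-tang, Palmul-tang or Cinnamomi Cortex. The shares of all genes higher and lower were 1.92% and 1.77% with Palmul-tang, 0.747% and 0.662% with Samul-tang, and 0.243% and 0.198% with Cinnamomi Cortex. Of the list of ATF4 and its targets, 8 of 12 genes rose with the dose of Sagunja-tang and 1, VLDLR, fell. In the same list 9 rose with Palmul-tang and 10 with Sibjeondaebo-tang.

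The single Rehmanniae Radix Preparata libraries are each labelled replicate 3. No other replicate of them is among the libraries used, so their values carry no test. At 500 µg/mL 35 of the 40 genes lay below the range of the 3 vehicle libraries and 2 above, where 33.7% of all genes lay below and 37.3% above. The median was -0.22, with CA9 at -0.73, BNIP3 at -0.67 and ALDOC at -0.58 the lowest and PFKM at 0.35 the highest. The 19 enzymes and transporters summed to 15675 CPM in that library. At 100 µg/mL 19 lay above and 11 below (median 0.01), where 36.4% of all genes lay above and 33.4% below. At 20 µg/mL 7 lay above and 24 below (median -0.06), where 35.5% of all genes lay above and 34% below.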

How the data were processed

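The values are expected counts per gene that the authors deposited as RSEM output; they were rounded to whole numbers here (90.85% were already whole, tolerance 1e-09). The submitters' processing notes name FastQC 0.11.9, Trim Galore 0.6.5, STAR 2.7.3a, RSEM 1.3.3 and hg38; the strand setting and annotation are not given in the sources used here. Of 279 columns, 60 were matched to samples and 219 were not used. The vehicle is labelled 0.1% DMSO, and the series text gives another share.

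Genes that passed filterByExpr (17676) were fitted together over 57 libraries and 19 groups with TMM scaling and edgeR 4.0.16 (R 4.3.3, limma 3.58.1), using the quasi-likelihood F test and Benjamini-Hochberg adjusted p below 0.05. SE and intervals come from that fit, with a prior count of 2 for log2 CPM. Dose trends are (high minus low)/2. The 3 Rehmanniae Radix Preparata libraries were scaled alike and not fitted. The procedure was tested on simulated data. Alternatives were DESeq2 1.42.0, RLE factors, no filter, fits of only the compared groups, a replicate block, each library left out, Astragali Radix low replicates 1 and 2 left out and, chosen after seeing the data, offsets for length and GC content. Pseudogene copies could take reads of 16 genes, at most 4.62% of a gene's counts (AK4).

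All 40 genes could be named. Values of every library are given for the 3 largest called rises and falls in each dose trend and high-dose comparison and for paralogue pairs, and at most 3 genes of another list by adjusted p. The genes and lists were chosen with earlier results of these data known.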

Additional observations from a re-analysis of the deposited data

Results flagged for a closer look

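The dose trends of the 4 formulas, tested against each other with edgeR's quasi-likelihood F test over all genes with 3 libraries per group, differed for 11 of the 40 genes. The test over all 4 formulas gave an adjusted p of 1.58e-06 for NDRG1, 2.07e-05 for PGK1 and 2.10e-05 for SLC2A1. BNIP3 (0.000273), AK4 (0.000417), PGAM1 (0.000622) and SLC16A3 (0.00139) followed in adjusted p. The adjusted p was 0.00788 for HK2, 0.0119 for EGLN3, 0.0169 for EGLN1 and 0.0441 for ALDOA.

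Between Sagunja-tang and Samul-tang the trend was lower with Sagunja-tang for 7 of these genes. SLC2A1 differed by -0.19 per 5-fold step (adjusted p = 0.000233), NDRG1 by -0.27 (0.00214) and HK2 by -0.23 (0.00900). AK4 (-0.20, adjusted p = 0.0138), PGK1 (-0.16, 0.0292), BNIP3 (-0.24, 0.0354) and EGLN1 (-0.18, 0.0418) were the others. Palmul-tang had a higher trend than Sagunja-tang for NDRG1 (0.28, adjusted p = 0.00253). Sibjeondaebo-tang had a higher trend than Palmul-tang for PGK1 (0.21, adjusted p = 0.00223), PGAM1 (0.19, 0.0105), BNIP3 (0.27, 0.0167) and SLC16A3 (0.22, 0.0272).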

How the results depend on the processing

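Of 316 calls of a gene in a comparison, DESeq2 lost 2 and gained 24, RLE factors lost 6 and gained 7, and the replicate block lost 0 and gained 7 (38 genes with Astragali Radix high, 24 with its medium dose, 14 in the trend of Sagunja-tang). Offsets for length and GC content lost 9, gained 122 and turned the sign of 5 genes called with or without them, and no filter on low counts lost 68 and gained 5. The cause of these shifts was not tested. Deviations of same-numbered replicates correlated at a median r of 0.0091, against -0.0050 for other numbers. The r passed 0.1 in 1 of 513 pairs, so the numbers were not taken to pair samples, although 49 of 57 libraries had a higher mean r with their own number than with the others, a hint from the data and not the design.

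Fitting only the groups compared gave 0 genes for Astragali Radix low. It gave 25 and 21 for Cinnamomi Cortex high and medium, 14 and 18 for Sagunja-tang medium and low, 22 and 16 for Samul-tang high and medium, 15 and 15 for Palmul-tang medium and low, and 18 and 15 for Sibjeondaebo-tang medium and low. The dose trends then had 4 for Cinnamomi Cortex, 25 for Sagunja-tang, 6 for Samul-tang and 20 for Palmul-tang. Without Astragali Radix low replicates 1 and 2 the counts were 8 for Astragali Radix low, 25, 19 and 17 for Cinnamomi Cortex high, medium and low, 14 for Sagunja-tang medium, 20 and 15 for Samul-tang high and medium, 16 and 14 for Palmul-tang medium and low, and 17 and 16 for Sibjeondaebo-tang medium and low. The trends had 6 for Cinnamomi Cortex, 24 for Sagunja-tang, 6 for Samul-tang and 19 for Palmul-tang. The differences in trend had 17 for Sagunja-tang against Samul-tang, 5 for Palmul-tang against Sagunja-tang, 4 for Palmul-tang against Samul-tang, 21 for Sibjeondaebo-tang against Palmul-tang and 30 over all 4 formulas.

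With offsets for length and GC content the counts were 22 for Cinnamomi Cortex high, 13 for Sagunja-tang medium, 16 and 12 for Samul-tang high and medium, 13 for Palmul-tang medium, and 11 and 10 for Sibjeondaebo-tang medium and low. The trends had 2 for Cinnamomi Cortex, 20 for Sagunja-tang, 5 for Samul-tang, 16 for Palmul-tang and 30 for Sibjeondaebo-tang. The differences had 14 for Sagunja-tang against Samul-tang, 2 for Palmul-tang against Sagunja-tang, 21 for Sibjeondaebo-tang against Palmul-tang and 29 over all 4. These offsets moved the share of rises among all called genes from 28.6% to 43.8% for Palmul-tang against Sagunja-tang (40.3% with DESeq2), from 22.5% to 70.4% for Sibjeondaebo-tang against Palmul-tang (37.6% with DESeq2) and from 46.8% to 56.9% for Astragali Radix medium. With no filter there were 6 for Cinnamomi Cortex medium, 5 for Sagunja-tang medium, 2 and 5 for Palmul-tang medium and low, 2 for Sibjeondaebo-tang medium, 0 and 1 in the trends of Cinnamomi Cortex and Samul-tang and 3 for Sagunja-tang against Samul-tang. DESeq2 gave 3 in the trend of Cinnamomi Cortex and 8 for Sibjeondaebo-tang against Palmul-tang, and RLE factors gave 2 in the trend of Cinnamomi Cortex.

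Leaving out 1 library at a time gave 37 to 39, 18 to 22 and 16 to 29 genes for Astragali Radix high, medium and low, 9 to 11, 6 to 8 and 7 to 9 for Cinnamomi Cortex, 20 to 22, 6 to 7 and 8 to 9 for Sagunja-tang, 5 to 8, 4 to 7 and 4 to 7 for Samul-tang, 14 to 18, 1 to 5 and 5 to 6 for Palmul-tang, and 11 to 14, 0 to 1 and 3 to 4 for Sibjeondaebo-tang. The trends had 35 to 37 for Astragali Radix, 0 for Cinnamomi Cortex, 8 to 10 for Sagunja-tang, 2 for Samul-tang, 3 to 4 for Palmul-tang and 10 to 17 for Sibjeondaebo-tang. The differences had 3 to 6 for Sagunja-tang against Samul-tang, 1 for Palmul-tang against Sagunja-tang, 0 for Palmul-tang against Samul-tang, 1 to 7 for Sibjeondaebo-tang against Palmul-tang and 9 to 12 over all 4.

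At Astragali Radix low against the vehicle, and in its trend, the sign turned for some genes called in the fit of all groups or only under the alternative, the cause not tested. At the low dose, without replicates 1 and 2, the log2 change was -0.19 for ALDOA, -0.040 for TPI1, -0.24 for PKM, 0.23 for PDK1, -0.027 for ADM, 0.10 for CA12 and 0.0098 for KDM3A. With offsets it was -0.14 for ALDOA, -0.18 for GAPDH and 0.19 for ERO1A. Leaving out 1 low-dose library gave -0.21 to 0.22 for LDHA, -0.16 to 0.23 for PFKP and -0.23 to 0.15 for P4HA1. In the trend, leaving out 1 library gave -0.15 to 0.12 for PFKL, -0.13 to 0.0054 for PFKM and -0.30 to 0.064 for CA9, the highest of each without low replicate 2. Without replicates 1 and 2 together these were 0.14 for PFKL, 0.025 for PFKM and 0.20 for CA9, and with offsets 0.13 for PFKL and 0.035 for CA9.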
